A study of Homo sapiens with 8 samples.

Results

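RNA from HOS cells labelled sgNAT10 was compared with RNA from HOS control cells labelled NC, gene by gene. Genes were taken where at least 2 of the 4 HOS libraries reached 1 FPKM, a read count scaled for transcript length and for the size of the library. This left 11957 of the 12810 genes listed for HOS, out of 13703 listed for either cell line of the study. Of the 853 listed genes left out, 222 reached the threshold in 1 library and 631 in none. Just inside it were 528 genes that reached it in exactly 2 libraries, 368 of them in the sgNAT10 pair alone and 102 in the NC pair alone, and these passed because the groups differ. Polyadenylated RNA was sequenced from 2 osteosarcoma lines, HOS and 143B, each with 2 NC and 2 sgNAT10 libraries. Both HOS groups are the same established line, and neither carries a treatment or a time point in the labels, so the groups differ by the label NC or sgNAT10 alone. The labels do not state separate cultures, clones or guides for the libraries within a group, nor how sgNAT10 was delivered, so the p-values here measure a spread that may be technical only.

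NAT10 is a nucleolar acetyltransferase that places N4-acetylcytidine on ribosomal, transfer and messenger RNA. HOS is a human osteosarcoma line, derived from a tumour whose cells descend from the bone-forming mesenchymal lineage, and 143B is a transformed derivative of HOS. Growth factor signals in such cells pass through receptor kinases and the ERK pathway to immediate early transcription factors, and secreted proteases and matrix proteins are among the outputs.

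Sums of listed FPKM ran from 484793 to 574807 per HOS library and were lower in both sgNAT10 libraries, and read depth is unknown. Libraries of the same label correlated at 0.9948 for NC and 0.9972 for sgNAT10 (Pearson's r of log2(FPKM + 1) across genes, which are not independent replicates). Of 22 osteoblast lineage markers 12 were tested in HOS, among them SPARC at 270.1 to 306 FPKM and COL1A1 at 314 to 421 FPKM, whereas the late markers BGLAP and IBSP and the factor SP7 were not among the genes analysed here. Of 26 endothelial, blood and neural markers 8 were tested, and the listed ones summed to 44.1 and 48.0 FPKM in NC and to 65.4 and 63.5 FPKM in sgNAT10, with PTPRC, the pan-leukocyte CD45 gene, not among them. Of 18 epithelial markers 9 were tested, and the listed ones summed to 728 and 839 FPKM in NC and to 1029 and 1031 FPKM in sgNAT10. Of these sums KRT18 alone gave 362 and 417 FPKM in NC and 606 and 615 FPKM in sgNAT10. The part of other cell types in the results was not tested.

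NAT10 RNA was not lower in the HOS libraries labelled sgNAT10. The gene (chromosome 11, 34105602 to 34147670, plus strand, GRCh38) stood at 14.9 and 16.2 FPKM in NC and at 21.1 and 19.1 FPKM in sgNAT10. Both sgNAT10 libraries thus lay above both NC libraries, with a change of 0.35 on the log2(FPKM + 1) scale (SE 0.10, adjusted p = 0.0054). With median-ratio scaling the change was 0.14 and not called (adjusted p = 0.26), nor was it called without sgNAT10 replicate 1 (adjusted p = 0.18), and it was -0.08 after correction for transcript length and GC content (adjusted p = 0.31). All directions that follow are between libraries as labelled, which the RNA of the targeted gene does not check.

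The difference between the labels reached most genes and was small for most of them. By limma, 8195 of 11957 genes changed at an adjusted p of 0.05 (68.5%), 5444 of them higher (45.5%) and 2751 lower (23.0%) in the sgNAT10 libraries. Of the calls, 3606 (44.0%) were smaller than 0.5 on the log2(FPKM + 1) scale, while 589 genes rose (4.93%) and 99 fell (0.828%) by at least 1. On the same scale 10 genes rose and 11 fell by at least 2, and 1 rose and 8 fell by at least 3. The scale understates folds of low genes, so these counts are not folds of FPKM. In mean FPKM, CXCR4 rose 14.4-fold at log2 2.12, and CFI fell 9.15-fold at log2 -2.13. The median absolute log2 difference was 0.40 between labels, against 0.13 between the NC libraries and 0.074 between the sgNAT10 libraries. In 9935 genes (83.1%) the libraries of one label all lay above those of the other.

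The balance of rises and falls depended on how the libraries were put on a common scale. The median log2 change over all genes was 0.19 with the deposited FPKM, -0.01 under median-ratio scaling, 0.01 under quantile normalization and 0.37 after setting every library to one sum. The corresponding splits were 5444 higher and 2751 lower as deposited, 3728 and 4050 under median-ratio scaling, 3902 and 3828 under quantile normalization, and 7116 and 1698 at a common sum. Changes of a gene or list are therefore to be read against 0.19.

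**Figure D1:**
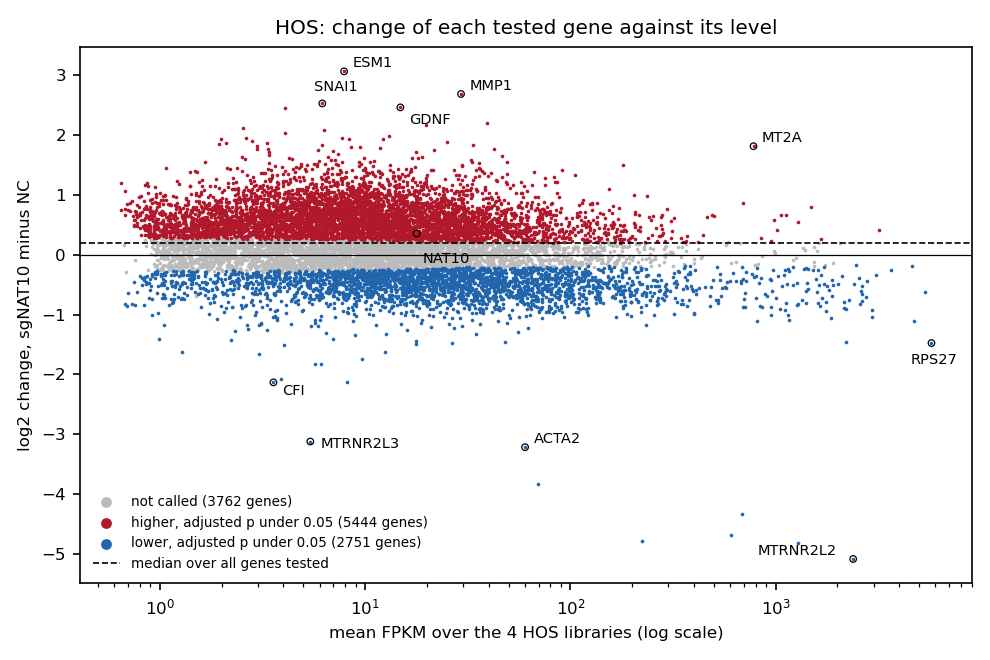
Each point is a gene of HOS, with its mean FPKM over the 4 libraries on a log axis and its log2 change (sgNAT10 minus NC) on the vertical axis, coloured by its call at an adjusted p of 0.05; the dashed line is the median change of 0.19. The 5444 rises stay within about 3 log2 units, led by ESM1 at 3.06, whereas a small group of MTRNR2L genes and ACTA2 lies below -3.

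The 2 largest rises were in genes of secreted proteins. ESM1, which encodes the proteoglycan endocan, stood at 0.83 and 0.98 FPKM in NC and at 13.7 and 16.1 FPKM in sgNAT10, 16.5-fold higher in mean FPKM (log2 3.06, SE 0.12, adjusted p = 5.5e-12). MMP1, the interstitial collagenase, stood at 8.04 and 6.39 FPKM in NC and at 49.96 and 52.96 FPKM in sgNAT10 (log2 2.68, SE 0.11, adjusted p = 1.4e-11). Both genes were named for the size of this change, so the separation of the labels follows from that choice. ESM1 reached 1 FPKM in the sgNAT10 pair alone, so it was tested only because the groups differ. GDNF, the ligand of the RET receptor complex, stood at 3.58 and 4.20 FPKM against 26.1 and 25.5 FPKM (log2 2.46, adjusted p = 4e-11). SPP1, which encodes the bone matrix protein osteopontin, stood at 1.33 and 0.71 FPKM against 6.86 and 7.39 FPKM (log2 2.02, adjusted p = 6.5e-09). HBEGF, a ligand of the EGF receptor, stood at 4.37 and 5.10 FPKM against 20.7 and 22.4 FPKM (log2 1.98, adjusted p = 8.1e-10). Genes were named among the largest rises only where the groups did not overlap, which held for 83.1% of all tested genes. Of these genes, SPP1 had the most uneven NC libraries in relative terms. VGF, a neuropeptide precursor (4.20 and 4.86 against 19.89 and 20.04 FPKM), and PLAU, the urokinase protease (9.72 and 10.6 against 40.8 and 39.4 FPKM), rose by 1.93 and 1.89.

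CXCR4, the receptor of the chemokine CXCL12, stood at 0.21 and 0.45 FPKM in NC and at 4.61 and 4.91 FPKM in sgNAT10 (log2 2.12, adjusted p = 1.1e-09), while CXCL12 itself fell slightly (log2 -0.29). S1PR1, a receptor of sphingosine 1-phosphate, stood at 0.91 and 0.82 FPKM against 6.24 and 5.32 FPKM (log2 1.86, adjusted p = 3.3e-09). TIE1, a receptor kinase known from endothelium, stood at 0.22 and 0.46 FPKM against 3.69 and 4.07 FPKM (log2 1.87), whereas its relative TEK was at 1.09 and 1.05 FPKM against 0.32 and 0.34 FPKM (log2 -0.64). CXCR4, S1PR1 and TIE1 reached 1 FPKM in the sgNAT10 pair alone, and TEK in the NC pair alone. These receptors were tested only because the groups differ, so their directions were largely set by the filter. They were below or near 1 FPKM in the control libraries, where the log2(FPKM + 1) scale understates a fold. The membrane-anchored semaphorin SEMA7A (2.02 and 2.25 against 9.94 and 10.4 FPKM; log2 1.83) and the placental alkaline phosphatase ALPP (6.18 and 7.10 against 35.3 and 31.0 FPKM; log2 2.16) also rose.

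Among signalling proteins inside the cell, RASD1, a small GTPase, stood at 0.52 and 0.63 FPKM in NC and at 7.62 and 7.48 FPKM in sgNAT10 (log2 2.44, adjusted p = 6.7e-11). TRIB1, a pseudokinase that guides proteins to degradation, stood at 2.55 and 2.58 FPKM against 13.1 and 12.6 FPKM (log2 1.95, adjusted p = 8.1e-10). DUSP4, a phosphatase that inactivates MAP kinases, stood at 2.74 and 3.03 FPKM against 14.1 and 13.4 FPKM (log2 1.92, adjusted p = 1.1e-09). For these genes too, groups that did not overlap were a condition of being named. The stress gene GADD45G (0.57 and 0.43 against 4.30 and 5.26 FPKM; log2 1.94), the GTPase RAC2 (0.57 and 0.67 against 5.23 and 4.79 FPKM; log2 1.89) and the cell cycle regulator RGCC (0.73 and 0.78 against 5.49 and 4.85 FPKM; log2 1.81) moved the same way. Of transcription factors, SNAI1, a repressor of epithelial genes, stood at 1.2 and 1.06 FPKM against 10.8 and 11.7 FPKM (log2 2.52, adjusted p = 4.2e-11). FOXA2, known from endoderm, stood at 0.29 and 0.19 FPKM against 3.64 and 3.81 FPKM (log2 1.93, adjusted p = 1.6e-09). RASD1, GADD45G, RAC2, RGCC and FOXA2 reached 1 FPKM in the sgNAT10 pair alone. They were tested only because the groups differ, so their directions were largely set by the filter.

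MT2A, a metallothionein that binds zinc and copper, was the most abundant of the 25 largest rises. It stood at 321 and 371 FPKM in NC and at 1152 and 1276 FPKM in sgNAT10 (log2 1.81, SE 0.09, adjusted p = 1.9e-10). Its neighbours in the family moved less: MT1G rose by 0.89, MT1E by 0.63 and MT1X by 0.40, and MT1F (log2 0.17) did not pass the test. The 250 bases before its start are shown because MT2A was the only one of the large rises with an AP-1 motif (TGANTCA, searched on both strands) in that window. The capitals mark the match, which begins 104 bases before the start (RefSeq, GRCh38.p14, chr16:56608334-56608583, plus strand).
MT2A: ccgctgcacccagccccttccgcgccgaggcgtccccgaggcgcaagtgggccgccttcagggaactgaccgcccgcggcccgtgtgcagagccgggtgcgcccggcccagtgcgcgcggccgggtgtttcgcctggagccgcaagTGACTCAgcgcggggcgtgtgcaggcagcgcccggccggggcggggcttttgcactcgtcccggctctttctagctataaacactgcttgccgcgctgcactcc
Windows were held for 15 of the 25 largest rises and 10 of the 25 largest falls. The AP-1 motif stood in 1 of those 15 and 0 of those 10, and in 6.57% of all 35116 promoter windows of the same length and 4.28% of those of tested genes. A match describes the letters only, and no match says nothing about the factor.

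**Figure D2:**
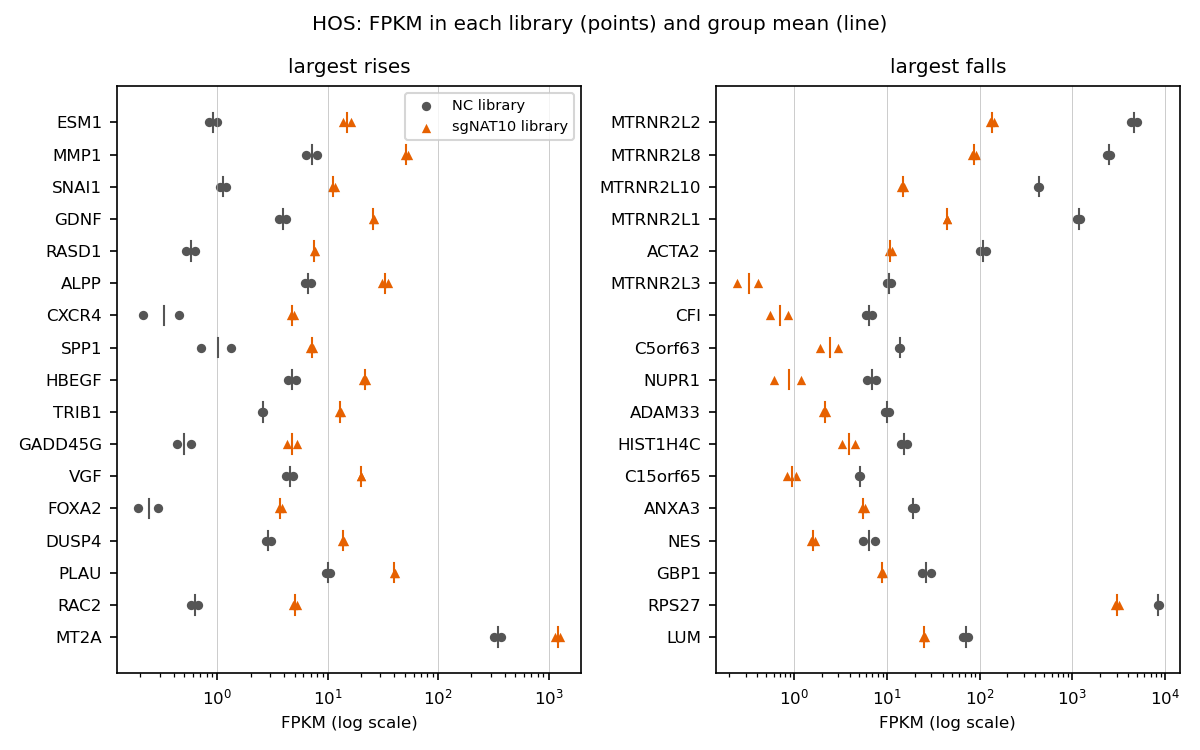
FPKM of each HOS library (points, log axis) and group means (lines) for 17 of the 25 largest rises and 17 of the 25 largest falls by log2 change, picked from the full sets for display. Only genes whose NC and sgNAT10 libraries did not overlap could enter these sets, so the separate pairs of points follow from that choice. The ratio of means (NC over sgNAT10) reaches 34.1 for MTRNR2L2.

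The deepest falls were in MTRNR2L genes, nuclear copies of a stretch of mitochondrial ribosomal RNA that contains the reading frame of the peptide humanin. All 8 tested MTRNR2L genes fell. MTRNR2L2 stood at 4925 and 4343 FPKM in NC and at 141 and 131 FPKM in sgNAT10, 34.1-fold lower in mean FPKM (log2 -5.08, SE 0.09, adjusted p = 3e-17). MTRNR2L8 stood at 2558 and 2385 FPKM against 91.2 and 83.6 FPKM (log2 -4.81), and MTRNR2L1 at 1199 and 1137 FPKM against 44.4 and 44.7 FPKM (log2 -4.68). The smallest fall was that of MTRNR2L4 (log2 -0.84). Between them, the changes were -4.78 for MTRNR2L10, -4.33 for MTRNR2L9, -3.82 for MTRNR2L6 and -3.12 for MTRNR2L3, although their control levels ran from 10.5 to 1304 FPKM on average. MTRNR2L3 reached 1 FPKM in the NC pair alone. The 72-base humanin-like stretches are shown because their likeness bears on what the table can tell apart. Capitals mark bases that differ from MTRNR2L8. They come from GENCODE 29 transcripts (GRCh38), at chr11:10508155-10508226 (minus strand) for MTRNR2L8, chr17:22524062-22524133 (plus) for MTRNR2L1, chr5:80650015-80650086 (minus) for MTRNR2L2, chr6:61574328-61574399 (plus) for MTRNR2L9, chr7:142667231-142667302 (plus) for MTRNR2L6, chr20:57358968-57359039 (minus) for MTRNR2L3 and chrX:55181923-55181994 (minus) for MTRNR2L10.
MTRNR2L8: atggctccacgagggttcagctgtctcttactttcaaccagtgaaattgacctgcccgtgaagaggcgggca
MTRNR2L1: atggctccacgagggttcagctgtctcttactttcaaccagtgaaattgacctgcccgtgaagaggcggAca
MTRNR2L2: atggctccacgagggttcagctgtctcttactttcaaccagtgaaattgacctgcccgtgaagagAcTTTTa
MTRNR2L9: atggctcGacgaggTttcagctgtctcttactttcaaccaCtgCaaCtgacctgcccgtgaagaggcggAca
MTRNR2L6: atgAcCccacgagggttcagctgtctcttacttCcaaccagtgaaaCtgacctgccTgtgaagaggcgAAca
MTRNR2L3: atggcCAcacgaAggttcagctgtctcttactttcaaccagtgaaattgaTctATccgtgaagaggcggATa
MTRNR2L10: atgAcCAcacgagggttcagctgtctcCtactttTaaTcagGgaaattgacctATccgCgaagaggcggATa
MTRNR2L1 differs from MTRNR2L8 at 1 of 72 bases, MTRNR2L2 at 5, MTRNR2L9 at 6, MTRNR2L6 at 7, MTRNR2L3 at 8 and MTRNR2L10 at 12 (98.6% down to 83.3% identical). MTRNR2L2 and MTRNR2L9 are annotated as pseudogenes, and their stretches were found as the best ungapped match. The values of single MTRNR2L genes are uncertain for this reason, and reads of the nuclear copies and of mitochondrial RNA cannot be told apart here. None of 13 mitochondrially encoded protein genes was among the genes analysed here.

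ACTA2, smooth muscle actin, had the largest fall outside that family. It stood at 102 and 117 FPKM in NC and at 10.5 and 11.3 FPKM in sgNAT10, 10.1-fold lower in mean FPKM (log2 -3.21, SE 0.10, adjusted p = 1.8e-13). Its sequence is close to that of other actins, so its level is uncertain, and the other actins moved differently: ACTG2 by -0.55, ACTC1 by 0.45, ACTG1 by 0.79 and ACTB by 0.42. CFI, the complement protease factor I, stood at 6.01 and 6.89 FPKM against 0.86 and 0.55 FPKM (log2 -2.13, adjusted p = 1.4e-09). NUPR1, a stress-induced chromatin protein, stood at 6.18 and 7.69 FPKM against 1.18 and 0.60 FPKM (log2 -2.08, adjusted p = 8.4e-09). These genes, like the other largest falls, were named only where the groups did not overlap, which held for 83.1% of all tested genes. C5orf63 fell by 2.12, the membrane protease ADAM33 by 1.83, C15orf65 by 1.65 and the calcium-binding annexin ANXA3 by 1.62. LUM, which encodes the collagen-binding proteoglycan lumican, stood at 75.6 and 66.6 FPKM against 24.6 and 25.7 FPKM (log2 -1.46), and NES, the intermediate filament nestin, at 5.52 and 7.37 FPKM against 1.67 and 1.53 FPKM (log2 -1.51). The interferon-induced GTPase GBP1 stood at 29.6 and 23.9 FPKM against 8.59 and 9.11 FPKM (log2 -1.49), and the keratin KRT19 at 3.86 and 3.54 FPKM against 0.90 and 0.61 FPKM (log2 -1.43). CFI and KRT19 reached 1 FPKM in the NC pair alone. Both were tested only because the groups differ, so their directions were largely set by the filter.

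For 3 further genes of the leading sets, reads are shared with overlapping or copied genes. The readthrough NME1.NME2 stood at 5.59 and 0 FPKM in NC and at 10.1 and 9.61 FPKM in sgNAT10 (log2 2.08), and the readthrough TNFAIP8L2.SCNM1 at 1.29 and 3.70 FPKM against 0.12 and 0 FPKM (log2 -1.63). Neither kept its call with robust moderation, and TNFAIP8L2.SCNM1 reached 1 FPKM in the NC pair alone. The histone gene HIST1H4C, one of several near-identical copies, stood at 14.3 and 16.5 FPKM against 4.58 and 3.25 FPKM (log2 -1.75), while its copy HIST1H4H rose (log2 1.12).

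By absolute level, the 8 largest losses were in ribosomal protein genes and in MTRNR2L2 and MTRNR2L8, and MT2A, described above, was among the 8 largest gains. RPS27, a protein of the small ribosomal subunit, stood at 8590 and 8290 FPKM in NC and at 2866 and 3214 FPKM in sgNAT10 (log2 -1.48, adjusted p = 7.8e-10). RPL26, of the large subunit, stood at 6448 and 6451 FPKM against 2865 and 3097 FPKM (log2 -1.11), and RPLP1, of the ribosomal stalk, at 3057 and 3375 FPKM against 1129 and 1198 FPKM (log2 -1.47). Ribosomal protein genes have many processed pseudogenes, so single values are uncertain. The other gains were in ACTB, cytoplasmic actin (2475 and 2976 against 3719 and 3539 FPKM), ACTG1 (1011 and 1173 against 1892 and 1868 FPKM) and the chromatin protein HMGA1 (452 and 536 against 918 and 883 FPKM). PKM, pyruvate kinase (log2 0.66), ENO1, enolase (log2 0.55), EEF2, the translocation factor of elongation (log2 0.58), and GNAS, the stimulatory G protein subunit (log2 0.66), gained as well. The ACTB call was lost under median-ratio scaling.

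Feedback regulators and outputs of the ERK pathway had, with deposited FPKM, the highest share of members called higher among the 51 lists tested. Members of a list are counted as higher or lower where they passed the test over all genes, against 45.5% and 23.0% of all tested genes. The range beside a list's median is that over 5 other scalings, the length and GC correction among them. Of 27 members 24 rose (88.9%) and 1 fell, with a median log2 change of 1.0 (range 0.67 to 1.2). The phosphatase DUSP5 stood at 8.78 and 10.1 FPKM in NC and at 35.7 and 32.5 FPKM in sgNAT10 (log2 1.75, adjusted p = 2.1e-09), and SPRY4, an inhibitor of receptor kinase signalling, at 1.06 and 1.07 FPKM against 6.07 and 5.42 FPKM (log2 1.71). Other feedback genes moved less, with SPRY2 at 1.24, SPRED1 at 1.01 and DUSP6 at 0.92. The member that fell was the ETS factor ETV1 (log2 -0.60), in contrast to ETV5 (log2 0.86) and ETV4 (log2 0.60). CCND1, cyclin D1, stood at 49.6 and 51.3 FPKM against 119 and 116 FPKM (log2 1.21).

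Immediate early and AP-1 factors had 19 of 22 tested members higher and 2 lower, with a median of 0.87 (range 0.52 to 1.06). JUN stood at 18.4 and 19.1 FPKM in NC and at 66.3 and 65.2 FPKM in sgNAT10 (log2 1.76, SE 0.09, adjusted p = 4e-10). ATF3, a stress-induced partner of AP-1, stood at 2.46 and 3.02 FPKM against 10.4 and 10.7 FPKM (log2 1.63). KLF2 (log2 1.44), KLF4 (log2 1.39), the FOS relatives FOSL1 (log2 1.41) and FOSL2 (log2 1.29), and the nuclear receptor NR4A2 (log2 1.15) also rose. FOS itself stood at 17.3 and 16.7 FPKM against 12.0 and 12.4 FPKM (log2 -0.45, adjusted p = 0.00075), and EGR1 at 19.39 and 19.88 FPKM against 15.03 and 13.56 FPKM (log2 -0.43, adjusted p = 0.0011). FOS and EGR1 were thus the members that fell, while the other FOS family members listed, FOSL1, FOSL2 and FOSB (log2 0.57), rose.

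Secreted growth factors and cytokines had 25 of 36 tested members higher and 7 lower (median 0.55, range 0.35 to 0.73). FGF5 stood at 1.45 and 1.09 FPKM in NC and at 5.24 and 5.78 FPKM in sgNAT10 (log2 1.52), and the inflammatory cytokine IL1A at 0.10 and 0.12 FPKM against 1.77 and 2.29 FPKM (log2 1.44). IL1A passed the filter through the sgNAT10 pair alone. IL11 (log2 1.42), NRG1 (log2 1.29) and LIF (log2 0.96) rose too, whereas FGF1 (log2 -0.66), the chemokine CCL5 (log2 -0.64) and MDK, midkine (log2 -0.49), fell. Receptor tyrosine kinases had 21 of 27 tested members higher and 2 lower (median 0.51, range 0.01 to 0.69), with EPHA2 at 1.17, INSR at 1.01 and EGFR at 0.94, and PDGFRA at -0.69. INSR reached 1 FPKM in the sgNAT10 pair alone. After length and GC correction the median of the receptor list was 0.01, with 9 higher and 4 lower. Semaphorins, plexins, ephrins and guidance receptors had 17 of 33 tested members higher and 4 lower, led after SEMA7A by NTN4 (log2 1.49), EFNB2 (log2 1.43) and EFNB1 (log2 1.27), but their median of 0.37 became -0.07 after that correction, with 11 higher and 13 lower.

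Hippo pathway genes and targets of YAP and TEAD had 24 of 31 tested members higher and 1 lower (median 0.85, range 0.58 to 1.06). DLC1, a GTPase-activating protein, stood at 8.01 and 7.46 FPKM in NC and at 28.4 and 26.9 FPKM in sgNAT10 (log2 1.71, adjusted p = 1.7e-09). The inhibitory kinase LATS2 (3.47 and 3.34 against 11.6 and 11.1 FPKM; log2 1.49), AMOTL2, which binds YAP (log2 1.42), the coactivators YAP1 (log2 1.0) and WWTR1 (log2 1.2) and the factor TEAD1 (log2 1.26) all rose. The best-known targets moved little: CTGF stood at 65.8 and 68.0 FPKM against 82.8 and 79.3 FPKM (log2 0.27), and CYR61 (log2 0.08) and ANKRD1 (log2 0.10) did not pass the test. TEAD2 fell (log2 -0.87).

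TGF-beta and BMP signalling genes had 26 of 34 tested members higher and 2 lower (median 0.67, range 0.37 to 0.85). They included the ubiquitin ligase SMURF2 (7.21 and 6.96 against 20.6 and 19.7 FPKM; log2 1.39), the inhibitory SMAD7 (log2 1.2), the BMP antagonist GREM1 (log2 1.16) and the receptor TGFBR2 (log2 1.05). The BMP-responsive genes ID1 (log2 -0.56) and ID3 (log2 -0.37) were the members that fell. Wnt and Notch genes had 26 of 33 tested members higher and 2 lower (median 0.66, range 0.20 to 0.82). The secreted antagonist SFRP1 stood at 8.17 and 8.77 FPKM in NC and at 28.9 and 26.9 FPKM in sgNAT10 (log2 1.61), with the ligand WNT7B at 1.55, the receptor FZD7 at 1.49 and the Notch target HEY1 at 1.33. The falls were APC (log2 -0.39) and CTNNB1, beta-catenin (log2 -0.31).

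Matrix proteases and their inhibitors had 17 of 28 tested members higher and 3 lower (median 0.49, range 0.15 to 0.68). After length and GC correction 14 of these were higher and 8 lower. Beside MMP1 and PLAU, the rises included the protease ADAMTS1 (log2 1.79), the inhibitor TIMP3 (log2 1.55) and the urokinase receptor PLAUR (log2 1.35), while ADAM33 was the deepest fall of the list. Collagens and their modifying enzymes had 16 of 29 tested members higher and 5 lower with a median of 0.37, which became -0.25, with 7 higher and 15 lower, after length and GC correction. COL13A1 (log2 1.35) and the crosslinking enzymes LOXL2 (log2 0.96) and LOX (log2 0.86) led, COL7A1 fell (log2 -0.90), and COL1A1, the main bone collagen, did not pass the test (log2 0.17, adjusted p = 0.13). Integrin subunits had 9 of 15 tested members higher and 3 lower (median 0.37, range 0.03 to 0.58). ITGB5 stood at 15.8 and 18.6 FPKM in NC and at 45.6 and 42.9 FPKM in sgNAT10 (log2 1.32), whereas ITGB1, the common beta subunit, stood at 326 and 272 FPKM against 159 and 171 FPKM (log2 -0.85).

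Lineage markers were mixed. Osteoblast genes had 8 of 12 tested members higher and none lower (median 0.66, range 0.35 to 0.87), the former including the master factor RUNX2 (3.09 and 3.15 against 8.79 and 9.36 FPKM; log2 1.29) and MSX2 (log2 0.96), while ALPL, bone alkaline phosphatase, did not pass the test (log2 0.16). After length and GC correction 7 osteoblast genes were higher and 2 lower. Mesenchymal factors and markers had 12 of 19 tested members higher and 2 lower (median 0.36, range 0.13 to 0.57), the falls being ACTA2 and ZEB1 (log2 -0.42), with CDH11 at 0.87, TWIST2 at 0.79 and VIM, vimentin, at 0.27. Of 9 epithelial markers 5 rose and 2 fell (median 0.42, range 0.07 to 0.54): KRT18 stood at 362 and 417 FPKM in NC and at 606 and 615 FPKM in sgNAT10, and KRT7 at 8.01 and 7.66 FPKM against 4.11 and 1.96 FPKM. After length and GC correction 4 epithelial markers were higher and 3 lower. Of 8 endothelial, blood and neural markers 5 rose and 1 fell (median 0.38, range 0.06 to 0.69), among them TIE1, CDH5 (log2 0.65, not called after length and GC correction) and TEK. TIE1, CDH5 and the mesenchymal CDH11 reached 1 FPKM in the sgNAT10 pair alone, and TEK in the NC pair alone. These genes were tested only because the groups differ, so their directions were largely set by the filter. Smooth muscle and contractile genes had 10 of 30 tested members higher and 11 lower, with a median of -0.08 that became 0.12 at a common sum (13 higher, 10 lower), 0.03 under quantile normalization (10 and 11), -0.29 under median-ratio scaling (5 and 19) and -0.39 after length and GC correction (4 and 19). Beside ACTA2, the light chain MYL6 (1411 and 1442 against 805 and 835 FPKM; log2 -0.80) and the tropomyosins TPM3 (log2 -0.80) and TPM1 (log2 -0.69) fell, and MRTFA, a coactivator of SRF, rose (log2 0.79).

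**Figure D3:**
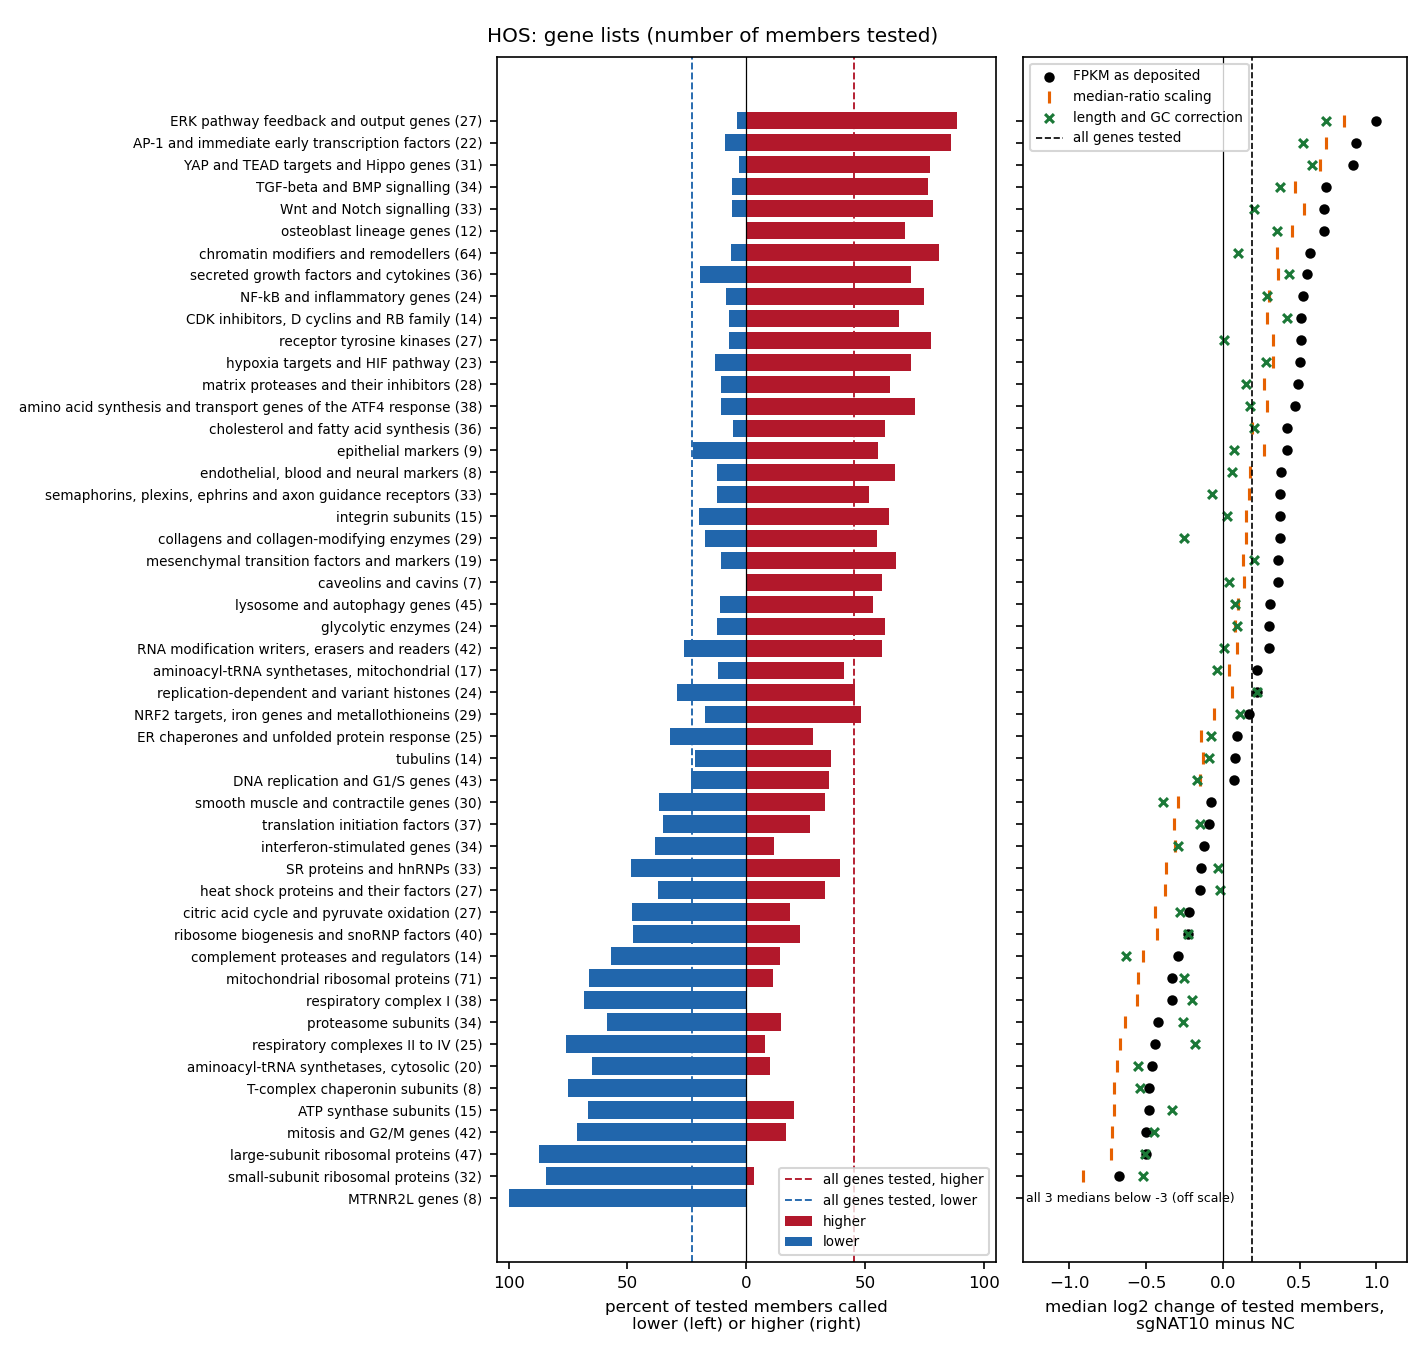
For 50 gene lists, the left panel gives the percent of tested members called higher (right of 0) or lower (left of 0) in sgNAT10, with dashed lines at the 45.5% and 23.0% of all genes tested; the right panel gives the median log2 change with deposited FPKM, median-ratio scaling and length and GC correction. ERK feedback genes stand at the top with a median of 1.0, and the small-subunit ribosomal proteins (-0.68) stand above only the MTRNR2L genes (-4.51, off the scale of the right panel).

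Large-subunit ribosomal proteins had 0 of 47 tested members higher and 41 lower (87.2%), with a median of -0.50, and under quantile normalization, with a median of -0.11, 11 were higher and 22 lower. Small-subunit proteins had 1 of 32 tested members higher and 27 lower, with a median of -0.68 (-0.16 under quantile normalization). Their summed level was 84883 and 88401 FPKM for the large subunit in NC against 56468 and 59119 FPKM in sgNAT10, a share of the listed FPKM of 15.3% against 11.8%. RPS29 stood at 1596 and 1563 FPKM against 670.1 and 821 FPKM (log2 -1.09), while RPL13 (log2 0.13), RPL3 (log2 0.08) and RPS3 (log2 -0.18) did not pass the test. Ribosome biogenesis factors had 9 of 40 tested members higher and 19 lower (median -0.23, range -0.43 to -0.04), the snoRNP protein NOP58 (log2 -0.68) and the nucleolar protein NPM1 (log2 -0.68) among the falls and RRP1B (log2 1.09) among the rises. At a common sum that list had 16 higher and 14 lower. POLR1A, the large subunit of RNA polymerase I, rose by 0.71, a call lost after length and GC correction.

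Translation initiation factors had 10 of 37 tested members higher and 13 lower, with a median of -0.09 that became 0.12 at a common sum (17 higher, 5 lower), 0.09 under quantile normalization (14 and 11), -0.32 under median-ratio scaling (7 and 21) and -0.15 after length and GC correction (10 and 20). Within the eIF3 complex, EIF3F stood at 122 and 149 FPKM in NC and at 279 and 263 FPKM in sgNAT10 (log2 1.0, adjusted p = 2.4e-07), whereas EIF3M stood at 441 and 434 FPKM against 253 and 267 FPKM (log2 -0.75) and EIF3E fell by 0.66. Subunits of one complex thus went in opposite directions. Cytosolic aminoacyl-tRNA synthetases had 2 of 20 tested members higher and 13 lower (median -0.46, range -0.69 to -0.25), led by EPRS (96.3 and 91.3 against 48.3 and 51.2 FPKM; log2 -0.90), LARS (log2 -0.83) and DARS (log2 -0.79).

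More subunits of the respiratory complexes and of ATP synthase were lower than higher, with deposited FPKM and under each of the 5 other scalings. Complex I subunits had 0 of 38 tested members higher and 26 lower (68.4%; median -0.33, range -0.56 to -0.12), with NDUFB3 at 105.48 and 98.5 FPKM in NC and 55.8 and 53.3 FPKM in sgNAT10 (log2 -0.89, adjusted p = 2.9e-07). Complexes II to IV had 2 of 25 tested members higher and 19 lower (median -0.44, range -0.67 to -0.18), with UQCRQ of complex III at -0.78 and COX7A2 of complex IV at -0.71. ATP synthase subunits had 3 of 15 tested members higher and 10 lower (median -0.48, range -0.71 to -0.27), with ATP5F1C, the rotor subunit gamma, at 326 and 319 FPKM against 137 and 148 FPKM (log2 -1.18). Mitochondrial ribosomal proteins had 8 of 71 tested members higher and 47 lower (median -0.33, range -0.55 to -0.12), from MRPL11 (log2 -1.0) to MRPL49 (log2 0.79). Citric acid cycle and pyruvate oxidation genes had 5 of 27 tested members higher and 13 lower (median -0.22, range -0.44 to -0.01), PDHB, a subunit of pyruvate dehydrogenase, falling by 0.69 and CS, citrate synthase, rising by 0.47. At a common sum the citric acid cycle list had 10 higher and 11 lower.

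Proteasome subunits had 5 of 34 tested members higher and 20 lower (median -0.42, range -0.64 to -0.21): PSMA4 stood at 346 and 332 FPKM in NC and at 181 and 196 FPKM in sgNAT10 (log2 -0.85), and PSMD2 at 74.7 and 84.9 FPKM against 152 and 150 FPKM (log2 0.91). The T-complex chaperonin, which folds actin and tubulin, fell in 6 of 8 subunits and rose in none (median -0.48, range -0.71 to -0.24), CCT8 by 0.83. Heat shock genes split, with 9 of 27 higher and 10 lower and a median of -0.15 that became 0.06 at a common sum. The inducible HSPA1A (16.9 and 19.2 against 55.3 and 52.5 FPKM; log2 1.53), whose copy HSPA1B is near-identical, the small heat shock protein HSPB8 (log2 1.45) and the cochaperone BAG3 (log2 1.06) rose. The constitutive chaperone HSP90AA1 (log2 -0.66), its cochaperone STIP1 (log2 -0.81) and the mitochondrial HSPE1 (log2 -0.63) fell.

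Cholesterol and fatty acid synthesis genes had 21 of 36 tested members higher and 2 lower (median 0.42, range 0.19 to 0.63). SCD, the desaturase of stearate, stood at 94.2 and 93.2 FPKM in NC and at 269.7 and 264 FPKM in sgNAT10 (log2 1.5, SE 0.08, adjusted p = 7.8e-10), and rises were also measured in INSIG1 (log2 1.28) and CYP51A1 (log2 1.04). Glycolytic enzymes and transporters had 14 of 24 tested members higher and 3 lower (median 0.30, range 0.08 to 0.51). After length and GC correction 10 of these were higher and 8 lower, with a median of 0.09. With deposited FPKM, HK2, hexokinase 2, stood at 1.41, the regulator PFKFB3 at 0.95 and the glucose transporter SLC2A1 at 0.92. LDHB fell by 0.60 and LDHA by 0.23, the latter rising by up to 0.21 under another scaling. Hypoxia genes had 16 of 23 tested members higher and 3 lower (median 0.50, range 0.24 to 0.66), including EPAS1, which encodes HIF-2 alpha (15.02 and 15.39 against 45.5 and 42.9 FPKM; log2 1.48), NDRG1 (log2 1.46) and the oxygen sensor EGLN1 (log2 1.14). BNIP3, a classical hypoxia target, fell (log2 -0.53).

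Genes of the ATF4 response, which supplies amino acids under stress, had 27 of 38 tested members higher and 4 lower (median 0.47, range 0.18 to 0.66), among the risers CEBPB (log2 1.13) and the transporters SLC7A1 (log2 1.09) and SLC7A5 (log2 1.06). After length and GC correction 19 were higher and 7 lower. The falls were NUPR1, ASNS, MTHFD2 (log2 -0.36) and ATF4 itself (434 and 449 against 367 and 372 FPKM; log2 -0.25, at most 0.02 over the scalings). ASNS, asparagine synthetase, stood at 88.0 and 86.1 FPKM in NC and at 35.8 and 37.9 FPKM in sgNAT10 (log2 -1.22, SE 0.09, adjusted p = 1.4e-08), against the direction of most of its list. The 250 bases before one of its starts are shown because they hold the amino acid response motif TGATGNAA (both strands searched), which 3.14% of all promoter windows and 1.59% of those of tested genes held. The capitals mark the match, 68 bases before the start (RefSeq, GRCh38.p14, chr7:97872409-97872658, minus strand), and this promoter and that of MT2A were chosen for display after values were seen.
ASNS: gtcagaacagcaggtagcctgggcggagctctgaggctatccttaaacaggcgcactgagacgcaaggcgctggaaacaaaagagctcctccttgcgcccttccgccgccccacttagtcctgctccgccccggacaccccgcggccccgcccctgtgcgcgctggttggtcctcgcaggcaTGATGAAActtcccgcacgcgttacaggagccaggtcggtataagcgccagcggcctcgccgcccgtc
Of the leading sets, GADD45G among the rises and GBP1 among the falls held the same motif.

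Mitosis and G2/M genes had 7 of 42 tested members higher and 30 lower (71.4%; median -0.50, range -0.72 to -0.29), HMMR (30.9 and 28.3 against 12.3 and 12.4 FPKM; log2 -1.2), the checkpoint kinase TTK (54.8 and 46.3 against 21.4 and 22.6 FPKM; log2 -1.16) and the spindle midzone protein PRC1 (log2 -0.96) among the falls. The phosphatase CDC25B (log2 0.74) and the activator CDC20 (log2 0.51) rose. DNA replication and G1/S genes had 15 of 43 higher and 10 lower, and their median of 0.07 became -0.15 under median-ratio scaling and -0.17 after length and GC correction, with UHRF1 at 1.02, GINS1 at 0.80 and POLD3 at -0.88. After length and GC correction 9 replication genes were higher and 21 lower. CDK inhibitors, D cyclins and RB family genes had 9 of 14 tested members higher and 1 lower (median 0.51, range 0.29 to 0.72). Under length and GC correction 8 of these were higher and 5 lower, and under median-ratio scaling 7 and 4. CDKN1A, the inhibitor p21, stood at 8.28 and 8.82 FPKM in NC and at 25.6 and 24.0 FPKM in sgNAT10 (log2 1.43, adjusted p = 1.1e-08), and CDK6 rose by 1.3.

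Chromatin modifiers and remodellers had 52 of 64 tested members higher (81.2%) and 4 lower, with a median of 0.57 that dropped to 0.10, with 25 higher and 13 lower, after length and GC correction. Their median transcript length was 7014 bases, against 3394 bases over all tested genes. BRD2, a reader of acetylated histones, stood at 44.4 and 42.8 FPKM in NC and at 112 and 103 FPKM in sgNAT10 (log2 1.28), with the DNA methyltransferase DNMT3B at 1.26, the methyltransferase KMT2A at 1.21 and the acetyltransferase EP300 at 1.13. EZH2 (log2 -0.49), HDAC1 (log2 -0.50), HDAC2 (log2 -0.27) and KDM3A (log2 -0.41) fell. Histone genes had 11 of 24 tested members higher (45.8%) and 7 lower (29.2%), near the 45.5% and 23.0% of all tested genes. Their median was 0.22 (range 0.06 to 0.37), with HIST1H2AC at 1.09 and HIST1H1C at 0.89.

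RNA modification enzymes and readers had 24 of 42 tested members higher and 11 lower, with a median of 0.30 (0.01 after length and GC correction, with 15 higher and 12 lower). The m6A reader YTHDF1 stood at 28.4 and 31.1 FPKM in NC and at 69.5 and 67.1 FPKM in sgNAT10 (log2 1.17, adjusted p = 2.9e-08), and the demethylase ALKBH5 rose by 1.06. The writer subunits METTL3 (24.8 and 24.3 against 17.6 and 17.2 FPKM, log2 -0.47), METTL14 (log2 -0.61) and VIRMA (log2 -0.76) fell, while the writer subunit RBM15 rose (log2 1.12). THUMPD1, which assists NAT10 on tRNA, did not pass the test (log2 -0.10). SR proteins and hnRNPs had 13 of 33 higher and 16 lower, with a median of -0.14 that became 0.07 at a common sum, from SRSF5 (237 and 215 against 108 and 109 FPKM; log2 -1.05) to HNRNPA0 (log2 0.76).

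Of 24 NF-kB and inflammatory genes, 18 rose and 2 fell (median 0.52, range 0.27 to 0.72), with the inhibitor NFKBIA at 23.9 and 24.4 FPKM in NC and 51.1 and 54.2 FPKM in sgNAT10 (log2 1.09), NFKB1 at 0.93 and TNFAIP2 at 0.88. Interferon-stimulated genes had 4 of 34 tested members higher and 13 lower, with a median of -0.12 that became 0.05 at a common sum (12 higher, 9 lower). The falls included IFI44 (5.63 and 4.88 against 1.79 and 2.33 FPKM; log2 -1.03), IFIT3 (log2 -1.01) and B2M, the light chain of MHC class I (1426 and 1305 against 712 and 749 FPKM; log2 -0.90), while HLA.A (log2 0.11) did not pass the test. Complement proteases and regulators had 2 of 14 tested members higher and 8 lower, with a median of -0.29 that became 0.02 at a common sum. Beside CFI, the inhibitor SERPING1 (log2 -0.88) and the protease C1S (log2 -0.63) fell, and the membrane regulators CD55 (log2 0.84) and CD46 (log2 0.58) rose. CFI and SERPING1 reached 1 FPKM in the NC pair alone.

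Transcript length and GC content moved with the change. Genes were divided into 10 groups of equal size. In the shortest group (75 to 1436 bases) the median log2 change was -0.19, with 18.8% higher and 46.7% lower, and in the longest (7531 to 34530 bases) it was 0.39, with 59.5% higher and 13.4% lower. By GC content the medians ran from -0.21 in the group of lowest GC content to 0.37 in the group from 58.63% to 62.1%. Libraries of the same label differed along length too, by 0.089 in the shortest and -0.092 in the longest group between the NC libraries, and by 0.043 and -0.038 between the sgNAT10 libraries. The 25 largest rises had a median length of 2386 bases and GC content of 52.6%, and the 25 largest falls 1546 bases and 42.5%, against 3394 bases and 48.7% over all tested genes. Removing each library's smooth trend with length and GC gave 3737 higher and 3920 lower, and reduced the change of 74 of 237 named genes by more than 1.5 times. The part of library preparation in this trend was not tested.

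**Figure D4:**
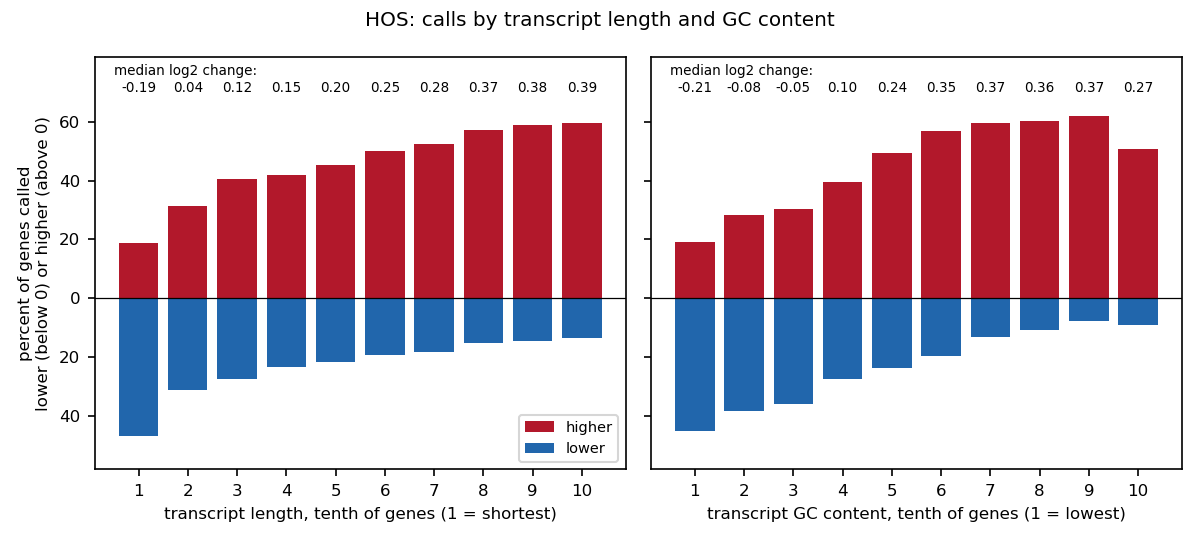
Percent of HOS genes called higher (above 0) or lower (below 0) in sgNAT10, in 10 groups of equal size by transcript length (left) and transcript GC content (right), with the median log2 change of each group printed. The share called higher grows from 18.8% in the shortest to 59.5% in the longest genes, and the share called lower shrinks from 46.7% to 13.4%.

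The HOS change was then set against the 143B change, within each line's own table. The changes differed in 5235 of 10655 genes tested in both lines (49.1%), with the HOS change higher in 3860 (36.2%) and lower in 1375 (12.9%). Under median-ratio scaling the split was 2681 and 2663, and without HOS sgNAT10 replicate 1 only 841 genes were called with the lower HOS change (861 without NC replicate 1, 903 without sgNAT10 replicate 2, 2217 without 143B NC replicate 2). The next shares are over genes called in HOS and tested in both lines, which are fewer than all HOS calls. Of those higher in HOS, 1677 (34.2%) were lower and 361 (7.35%) higher in 143B. Of those lower in HOS, 387 (15.6%) were higher and 291 (11.8%) lower in 143B. Of the 25 largest rises in HOS, 22 were tested in both lines, of which 13 fell and 0 rose in 143B. Of the 25 largest falls, 17 were tested in both, of which 2 fell and 10 rose in 143B. Over all 10655 genes tested in both, 2665 fell and 1141 rose in 143B.

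Single genes went in opposite directions. PLAU rose in HOS by 1.89 and fell from 456 to 32.9 FPKM on average in 143B (difference 5.63, SE 0.24, adjusted p = 6.6e-06), and CDKN1A rose by 1.43 and changed by -3.83 in 143B (difference 5.26). DDIT4, an inhibitor of mTORC1, stood at 42.5 and 45.1 FPKM in HOS NC and at 77.2 and 77.4 FPKM in HOS sgNAT10, and changed by -4.50 in 143B (difference 5.31). MTRNR2L3 fell in HOS by 3.12 and rose in 143B by 4.15 (difference -7.27), the largest difference of any gene called in both tests. CAV1, caveolin-1, rose in both lines, by 0.49 in HOS and by 3.43 in 143B (difference -2.95). ACTA2 also fell in 143B, where it was low in controls (2.94 FPKM on average), by 1.11, and ASNS fell in both lines, with no difference called (0.66, adjusted p = 0.059). NAT10 changed by 0.35 in HOS and by -1.06 in 143B (difference 1.41, adjusted p = 0.0036), and its HOS value depends on the scaling, as given above.

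**Figure D5:**
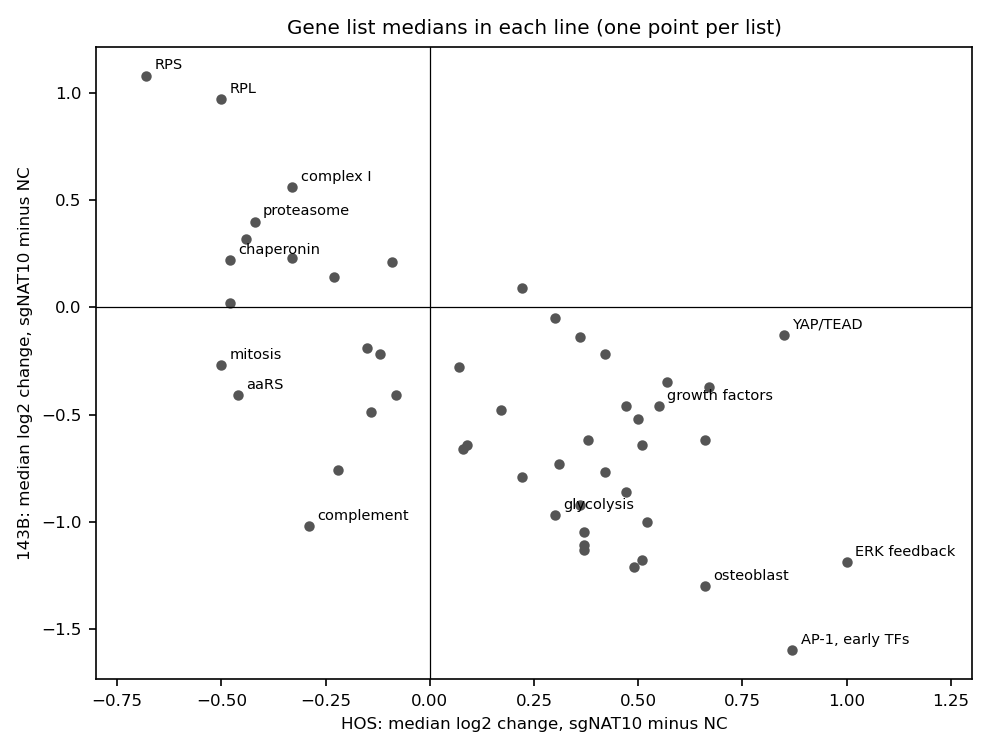
Each of 50 points is a gene list, with its median log2 change (sgNAT10 minus NC) in HOS on the horizontal axis and in 143B on the vertical axis; lists with under 5 genes tested in both lines and the MTRNR2L genes are left out. Of these lists 31 have a median above 0 in HOS and below 0 in 143B, 10 the reverse, 8 lie below 0 in both and 1 above 0 in both; against the medians of all genes tested in both lines (0.19 in HOS, -0.27 in 143B) the counts are 23, 12, 10 and 5.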

How the data were processed

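Polyadenylated RNA from TRIzol extracts was sequenced on a BGISeq-500, per the labels' protocols. The authors deposited 1 table of FPKM values per cell line. Bowtie2, RSEM, DESeq2 and GRCh38 stand in the submitters' processing notes, and their roles, versions and the annotation are not given in the sources used here. FPKM are not counts: depth could not be recovered, so no interval for counting error is given.

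Groups follow the labels. Genes reaching 1 FPKM in at least 2 HOS libraries were tested on log2(FPKM + 1) with limma 3.58.1 in R 4.3.3 (sgNAT10 minus NC, two-sided, prior variance following mean level), with a threshold of 0.05 on p adjusted by Benjamini-Hochberg over all tested genes. Adjusted p-values are limma's throughout, since an exact permutation test of 2 against 2 libraries cannot go below p = 0.33. The fit was tested on simulated data. Fold changes on this scale understate those of low genes. The difference between lines was an interaction term over 8 libraries. Length and GC content came from GENCODE 29 and matched 11832 genes. Replicate numbers were checked for pairing: the deviations of same-numbered HOS libraries correlated at -0.106, with 2 pairs only, and the labels do not say that a number marks a shared batch.

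Genes were named by rule: NAT10, the 25 largest called rises and falls whose libraries did not overlap and whose higher mean was at least 2 FPKM, up to 4 called members per list, the 8 largest gains and losses of mean FPKM, and the 6 largest differences from 143B in each direction. Other list members named were chosen after their values were seen. Members and lists were chosen with earlier results of these data known. Some genes named by the rule, and 1 list, are not reported here. Alternatives were another pseudocount, filter or scaling, a length and GC correction, the replicate block, other variance settings and leaving out each library; the crossed block was chosen after seeing the data.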

Additional observations from a re-analysis of the deposited data

Results flagged for a closer look

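The HOS and 143B changes differed by the interaction test in 5235 genes. The genes named here are those with the largest such differences, each called in both tests. The HOS change was lower than the 143B change by the widest margin in MTRNR2L3 (log2 difference -7.27), MTRNR2L8 (-6.05), MTRNR2L1 (-6.02), MTRNR2L2 (-5.91) and MTRNR2L6 (-5.57), all lower in HOS sgNAT10 libraries and higher on average in those of 143B. MTRNR2L2 was not called in 143B itself (limma, log2 0.83, adjusted p = 0.092). LOC105369205 followed at -5.22, with a mean of 0.16 FPKM in 143B controls and 21.3 FPKM in 143B sgNAT10 libraries.

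In the other direction stood the readthrough NME1.NME2 (5.75), PLAU (5.63), DDIT4 (5.31), CDKN1A (5.26), PLAT, tissue plasminogen activator (5.23), and BHLHE40, a repressor of the circadian clock (5.01). Each rose in HOS and was lower in 143B, where PLAT went from 58.6 to 1.27 FPKM and BHLHE40 from 26.4 to 0.705 FPKM on average.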

How the results depend on the processing

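Each of 237 named genes was refitted under the alternatives that keep it, all 19 for 200 genes and 16 to 18 for 37. Of these genes 178 kept direction and call under every alternative run for them, and 228 under every one but the spread shared by all 8 libraries, which weakened 55 calls. Under some setting 3 genes reversed. The 8195 calls among 11957 genes in HOS became 688 with a minimum change of 1 on the log2(FPKM + 1) scale. With that shared spread 1864 were called among the 10655 genes tested in both lines, a smaller set of genes. The number of calls also moved when 1 library was left out, where the lone library is assumed to vary like the others. NAT10 gave 0.14 under median-ratio scaling, 0.20 under quantile normalization, -0.08 with length and GC correction, with or without the replicate block, and 0.35 with the shared spread, where it was not called. Leaving out 1 library gave 0.29 to 0.42. PACSIN2 became -0.02 with length and GC correction, also with the replicate block, and RPS2 became 0.05 under quantile normalization. The replicate block gave 7881 calls (5267 higher, 2614 lower) and the crossed replicate block, added after seeing the data, 8458; for the difference between lines the replicate block gave 7358 against 5235. The causes were not tested. A pseudocount of 5 made the change of 65 named genes more than 1.5 times smaller. Read depth is unknown, so low values carry an unstated counting error.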

Other observations

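Further gene groups were measured in HOS, to be read against 45.5% higher and 23.0% lower over all tested genes. Lysosome and autophagy genes rose in 24 (53.3%) and fell in 5 (11.1%) of 45 cases. Their median log2 change was 0.31, and 0.08 after length and GC correction. NPC1, which exports cholesterol from lysosomes, stood at 2.51 and 3.04 FPKM in NC and at 7.25 and 6.81 FPKM in sgNAT10 (log2 1.09), and the autophagosome protein MAP1LC3B rose by 0.80, whereas its relative GABARAP fell by 0.42. Among NRF2 targets, iron genes and metallothioneins 14 of 29 rose (48.3%) and 5 fell (17.2%), near the shares of all tested genes. Their median of 0.17 became -0.06 under median-ratio scaling. FTL, the ferritin light chain, stood at 1040 and 1166 FPKM in NC and at 513 and 514 FPKM in sgNAT10 (log2 -1.1), while the antioxidant enzyme SRXN1 rose by 0.95. Caveolins and cavins rose in 4 of 7 cases and fell in none with deposited FPKM (median 0.36), led by CAVIN1 (83.2 and 94.2 against 162 and 157 FPKM, log2 0.84). After length and GC correction their median was 0.04, with 3 higher and 0 lower. Under median-ratio scaling 3 were higher and 2 lower, and under quantile normalization 4 and 2.

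Chaperones and sensors of the endoplasmic reticulum split, 7 of 25 higher and 8 lower, with a median of 0.09 that became -0.14 under median-ratio scaling and -0.08 after length and GC correction. HERPUD1 stood at 13.1 and 14.9 FPKM in NC and at 35.5 and 34.3 FPKM in sgNAT10 (log2 1.26), and the chaperone HSP90B1 at 506 and 449 FPKM against 277 and 289 FPKM (log2 -0.75). Of 14 tubulins 5 rose (35.7%) and 3 fell (21.4%). Their median of 0.08 became -0.13 under median-ratio scaling and -0.09 after length and GC correction. TUBB2A rose by 0.66 and TUBA1A, which has near-identical copies, fell by 0.55. Mitochondrial aminoacyl-tRNA synthetases rose in 7 (41.2%) and fell in 2 (11.8%) of 17 cases, RARS2 falling by 0.91. Their median of 0.22 became -0.02 under quantile normalization and -0.04 after length and GC correction. By chromosome, the median change ran from 0.03 on chromosomes 4 and 5 to 0.33 on chromosome 18. After length and GC correction these medians were -0.04, -0.07 and 0.15, and the lowest was -0.14 on chromosome 21.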
